A study of Mus musculus with 6 samples.

Results

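Small nucleolar RNAs and the transcripts that carry them were measured in mouse lenses with and without a conditional deletion of fibronectin. The set was every row of the expression table whose symbol starts with Snord, Snora, Scarna or Snhg, or is Gas5, and it was selected on a mean of at least 1 FPKM over the libraries with a value. FPKM is a count of sequenced fragments scaled by transcript length and library size. Of 41449 rows in the table, 141 had such a symbol, and 88 reached the minimum, among 10149 rows of any kind that did. The 88 were 44 of 76 box C/D rows (Snord), 27 of 38 box H/ACA rows (Snora), 6 of 9 Scarna rows and 11 of 18 host rows (Snhg and Gas5). Another 45 rows with such a symbol were at 0 in every library, and 8 were above 0 but under the minimum, 7 of them hosts.

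Total RNA came from lenses of 2-month-old mice, 2 lenses to a library, in 3 libraries of each genotype. The WT animals were wild type on C57BL/6, and the FNcKO animals carried a fibronectin conditional knockout on a mixed background of C57BL/6, 129 and FVB/N. Genotype and strain therefore changed together and cannot be told apart, and neither the Cre line nor its promoter is named in the labels. The labels call the 3 libraries of a genotype biological replicates. Since a library is a bulk sample, fewer cells of a type and less RNA per cell cannot be told apart.

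Small nucleolar RNAs are short stable RNAs of the nucleolus that guide chemical changes in ribosomal RNA. Box C/D members guide methylation of the ribose, box H/ACA members guide the change of uridine to pseudouridine, and Scarna members act in Cajal bodies on the spliceosome's own RNAs. In mammals most are cut out of introns. Their hosts are often ribosomal protein genes, or non-coding genes such as the Snhg genes and Gas5, whose spliced RNA is commonly short-lived. Lens fibers lose their nuclei and nucleoli as they mature, so in a lens these RNAs are made in the epithelium and the younger fibers.

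The sequences of the box C/D members that the comparison turned on are given 5′ to 3′ as DNA letters from GENCODE M21 on GRCm38. Capitals mark the first TGATGA that stands for box C and the last CTGA that stands for box D.
Snord100: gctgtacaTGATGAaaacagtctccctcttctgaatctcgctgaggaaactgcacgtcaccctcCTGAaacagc
Snord17: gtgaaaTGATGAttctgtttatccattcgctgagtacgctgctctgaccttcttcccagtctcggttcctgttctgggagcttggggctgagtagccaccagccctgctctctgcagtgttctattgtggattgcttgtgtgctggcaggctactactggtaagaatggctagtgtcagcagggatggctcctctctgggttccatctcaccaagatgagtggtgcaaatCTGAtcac
Snord15a: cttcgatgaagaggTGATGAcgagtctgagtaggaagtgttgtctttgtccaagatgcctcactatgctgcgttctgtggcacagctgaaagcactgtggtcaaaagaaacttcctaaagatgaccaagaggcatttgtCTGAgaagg
Snord15b: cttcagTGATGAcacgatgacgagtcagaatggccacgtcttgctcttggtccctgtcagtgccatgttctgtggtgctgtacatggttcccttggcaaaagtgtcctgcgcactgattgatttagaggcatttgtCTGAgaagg
Snord87: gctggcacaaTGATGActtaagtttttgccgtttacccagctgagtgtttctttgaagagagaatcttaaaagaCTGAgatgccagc
Snord22: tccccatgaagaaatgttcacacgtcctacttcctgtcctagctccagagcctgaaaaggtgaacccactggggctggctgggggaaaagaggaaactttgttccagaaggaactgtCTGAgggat
Snord100 lies at chr10:23785750-23785823 and Snord17 at chr2:144265979-144266216, both on the minus strand. Snord15a lies at chr7:99482785-99482932 and Snord15b at chr7:99479563-99479707, both on the minus strand inside Rps3. Snord87 lies at chr1:9942463-9942549 on the minus strand, and Snord22 at chr19:8725866-8725991 on the plus strand. TGATGA was found on the RNA strand in 74 of 98 annotated Snord transcripts (75.5%) and in 0 of 42 Snora transcripts. Snord22 is among those without this exact run. CTGA stood in the last 20 bases of 96 of the 98 Snord transcripts and of 5 of the 42 Snora transcripts.

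The most abundant box H/ACA member and a well-covered longer one are shown with the ACA near the 3′ end in capitals.
Snora16a: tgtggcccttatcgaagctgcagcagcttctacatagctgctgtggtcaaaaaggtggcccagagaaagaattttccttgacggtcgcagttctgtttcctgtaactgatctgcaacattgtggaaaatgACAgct
Snora73a: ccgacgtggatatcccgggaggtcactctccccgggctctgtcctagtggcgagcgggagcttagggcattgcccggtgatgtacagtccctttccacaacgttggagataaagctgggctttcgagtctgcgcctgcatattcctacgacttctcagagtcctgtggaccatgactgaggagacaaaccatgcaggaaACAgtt
Snora16a lies at chr4:132309465-132309600 on the plus strand inside Snhg12. Snora73a lies at chr4:132352775-132352979 on the minus strand, inside the row named Snhg3, which the annotation places within Rcc1. ACA stood in the last 6 bases of 39 of 42 Snora transcripts (92.9%) and of 5 of 98 Snord transcripts. The letters describe the class, and nothing in them was compared with the change between genotypes.

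FPKM values of such short RNAs rest on few fragments. The values of rows from 60 to 280 bases long fell on steps, from which the worth of 1 fragment was recovered for 72 of the 77 small RNA members, the other 5 being shorter. The lengths used are those of the table's rows, which for Snord87, Snord100 and Snord17 (74, 68 and 221 bases) are shorter than the annotated RNAs printed above (87, 74 and 238 bases). One fragment was worth 82.4 FPKM in Snord87 (74 bases) and 6.01 FPKM in Snord15a (148 bases) in WT replicate 1. The same fragment was worth 1.6 times as much in FNcKO replicate 3. Depth relative to WT replicate 1 was taken as the inverse of this worth and was not measured apart from it. It was 0.895 and 0.832 in the other WT libraries and 0.674, 0.666 and 0.625 in the FNcKO libraries. Such depth holds whatever scaling was applied to the values, so ratios and sums set to it restate the FPKM. Of the 72 members, 37 had fewer than 10 fragments over all 6 libraries, 17 of them a single fragment, and 9 had at least 100. Only 26 of the 77 small RNA members were above 0 in every library with a value, and 22 were above 0 in 1 library alone. A high mean FPKM in a row of 60 to 80 bases can thus be 1 fragment, and intervals on fragments cover counting error only, since the fragments carry no molecular identifiers.

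**Figure D1:**
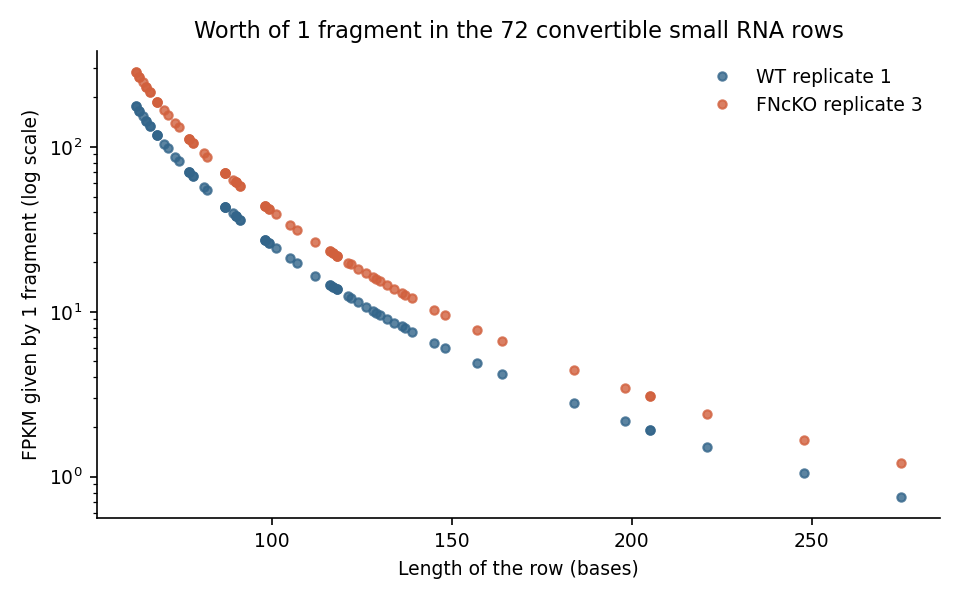
FPKM given by 1 fragment (log axis) against the length of the row in bases, for the 72 small RNA rows that could be converted, in WT replicate 1 and FNcKO replicate 3. Each point is a row. The worth of a fragment falls from over 100 FPKM in the shortest rows to about 1 in the longest. The FNcKO points lie 1.6 times higher at every length because 1 factor per library was used for all lengths.

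Fn1, the targeted gene, was under the minimum in both genotypes, at 0.135, 0.188 and 0.253 FPKM in WT and 0.128, 0.0482 and 0.0942 FPKM in FNcKO. Lens fiber markers were present in all libraries, with summed levels of 10050 to 10720 FPKM in WT and 9962 to 10850 in FNcKO over the 8 of 9 markers with every value. None of the 9 was called, and 4, among them Birc7 and Mip, had every FNcKO value above every WT value. The 7 lens epithelium markers summed to 509.8 to 556.6 and 470.2 to 580.7 FPKM, and 2 of them were called higher in FNcKO, Slc7a5 (limma adjusted p 0.0159) and Epha2 (0.0422). Lists of markers for neighbouring tissue went different ways. The 8 pigment cell markers summed to 11.6 to 18.9 FPKM in WT and 6.67 to 8.46 in FNcKO, with 6 under the minimum. Of 6 ciliary body and iris markers, the 5 with every value summed to 22.5 to 31.9 FPKM in WT and 53.7 to 71.1 in FNcKO. In this list 2 were under the minimum, and 3 of the 4 tested had a log2 change above 0. Groups stood apart in 2 of the 4, and 1, Aqp1, was called higher (limma adjusted p 0.0432). Photoreceptor markers summed to 25.9 to 74.5 and 38.7 to 39.5 FPKM over the 9 of 10 with every value, while 9 of the 10 had a log2 change below 0. The one without a value in WT replicate 2, Gnat1 (rod transducin), was called lower, at 18.9 and 22.2 FPKM in WT and 8.84, 9.64 and 9.77 in FNcKO (limma adjusted p 0.0215). All 7 leukocyte markers and all 5 red cell markers were under the minimum. The part of these cells, and of the lower FNcKO depth, in the results that follow was not tested.

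Across the whole table, limma on log2(FPKM + 1) with Benjamini-Hochberg adjustment called 192 of 10149 rows at an adjusted p under 0.05 (1.89%). Of these, 105 were lower in FNcKO (1.03%) and 87 higher (0.857%). This split depended on scaling: 102 were lower and 140 higher with median-ratio scaling, and 26 lower and 63 higher when libraries were set to the same FPKM total. Of the 88 members, 5 were called (5.68%), all lower: Snord100, Snord17, Snord15a, Snhg6 and Snhg12. Setting libraries to the same total left Snord17 alone of these. At an unadjusted p under 0.05 the members stood at 14 of 88 (15.9%) against 18.1% of all rows. The groups did not overlap in 14 of 88 members (15.9%), with FNcKO below WT in each, against 16.3% of all rows, so this share was near the background. Both counts of 14 include the 3 Snord116 rows, which hold identical values. With these counted once, 8 of 42 box C/D rows stood apart instead of 10 of 44. An unadjusted p under 0.05 was then found in 7 box C/D rows instead of 9. No member had every FNcKO value above every WT value, which 9.31% of all rows had but only 2 of 432 other rows under 300 bases (0.463%).

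The median log2 change was -1.08 over the 44 box C/D rows, -0.50 over the 27 box H/ACA rows, -0.62 over the 6 Scarna rows and -0.18 over the 11 hosts, beside -0.04 over all rows tested. The box H/ACA median depended on single libraries, at -0.12 without FNcKO replicate 2 and -0.83 without WT replicate 3. With the 3 identical Snord116 rows counted once, a choice made after seeing the data, the box C/D median was -1.18. Rows seen through 1 or 2 fragments enter these medians, and such a row had to differ between single libraries in order to pass the minimum. Over the 20 box C/D rows with at least 10 fragments the median was -0.67, and over the 13 such box H/ACA rows it was -0.78. Only 2 Scarna rows had as many fragments, and both lay above 0, with a median of 0.39. The 432 other rows under 300 bases, taken without a fragment minimum, had a median of -0.66, and 6 of them passed (1.39%), all lower. The median was -0.71 over the 237 of these that are transfer RNAs and -0.41 over the 195 that are not. A median below that of all rows was therefore shared by both kinds of short row, to unlike degrees. Under the same FPKM total the median of all rows moved to 0.15, that of hosts to 0.02, that of box C/D rows to -0.90 and that of box H/ACA rows to -0.26.

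**Figure D2:**
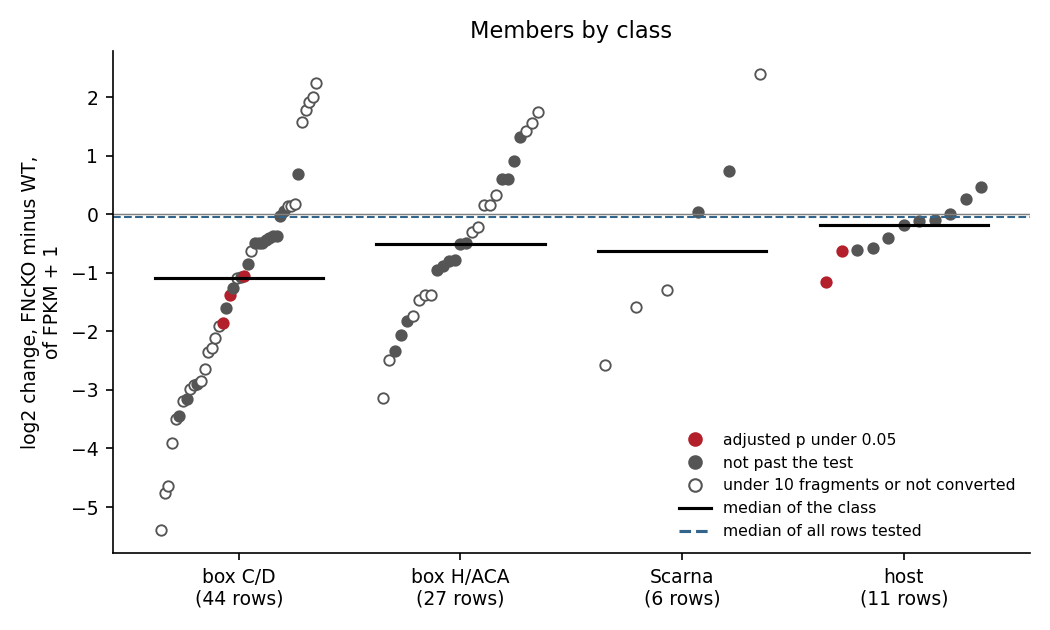
Log2 change of FPKM + 1, FNcKO minus WT, of each of the 88 members by class. Points are rows, open where they had under 10 fragments or could not be converted, red where limma's adjusted p was under 0.05. Solid lines are class medians (-1.08, -0.50, -0.62 and -0.18) and the dashed line is the median of all rows tested (-0.04).

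Box C/D RNAs were the most abundant class, and 3 of 44 passed the test, all lower in FNcKO, beside 1.89% of all rows called. Snord100, carried by the small-subunit ribosomal protein gene Rps12, read 2239, 3027 and 2692 FPKM in WT replicates 1 to 3 and 1224, 1239 and 1319 FPKM in FNcKO replicates 1 to 3. These were 19, 23 and 19 fragments against 7, 7 and 7. Every FNcKO library lay below every WT library. The WT mean of 2652 ± 395 FPKM and the FNcKO mean of 1261 ± 51.2 FPKM (± SD, n = 3 libraries each) differed 2.1-fold, with a log2 change of -1.06 ± 0.13 (SE) and a limma adjusted p of 0.0238. The call held when WT replicate 1 was left out and was lost when any other library was, with adjusted p up to 0.109.

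Snord17 had the largest log2 fall among the small RNA members whose groups stood apart and that were above 0 in every library. It is a long box C/D RNA from Snx5, which encodes an endosomal sorting nexin. It read 69.2, 111 and 77.7 FPKM in WT and 26.8, 15.8 and 26.5 FPKM in FNcKO, from 46, 66 and 43 fragments against 12, 7 and 11. The lowest WT value was above all FNcKO values. The means of 85.9 ± 22.0 and 23.0 ± 6.25 FPKM (SD, n = 3 each) differed 3.73-fold, with a log2 change of -1.86 ± 0.26 (SE) and a limma adjusted p of 0.0344. Leaving out any single library ended the call, with adjusted p from 0.0564 to 0.128 and log2 changes from -2.0 to -1.62.

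Snord15a and Snord15b are related box C/D RNAs carried side by side by Rps3, another small-subunit ribosomal protein gene. Snord15a read 955, 1329 and 881 FPKM in WT and 446, 307 and 461 FPKM in FNcKO, from 159, 198 and 122 fragments against 50, 34 and 48. Its means of 1055 ± 240 and 405 ± 85.1 FPKM (SD, n = 3 each) stood apart, 2.61-fold lower in FNcKO, with a log2 change of -1.38 ± 0.22 (SE) and a limma adjusted p of 0.0466. Snord15b was the best-covered small RNA, and its groups overlapped. It read 2871, 4218 and 2876 FPKM in WT and 2371, 1913 and 3279 FPKM in FNcKO, with a log2 change of -0.41 ± 0.25 (SE) and a limma adjusted p of 0.455. The level of Snord15a as a share of Snord15b was 33.3%, 31.5% and 30.6% in the WT libraries and 18.8%, 16.0% and 14.1% in the FNcKO libraries. The shares did not overlap, and they varied little within a genotype, although this pair was set side by side after its values were seen. The Snord15a call was the least steady of the 5, lost on leaving out any library (adjusted p from 0.0842 to 0.146), with a pseudocount of 10, without a filter, with either other scaling and without the mean-variance trend.

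Of the remaining abundant box C/D RNAs, Snord87 and Snord22 had groups apart but missed the threshold. Snord87, from Snhg6, had the highest FPKM of all members at 7994, 7364 and 7629 in WT and 5016, 3218 and 3032 in FNcKO. These came from 97, 80 and 77 fragments against 41, 26 and 23, a ratio per depth of 0.492 with an exact 95% interval of 0.382 to 0.628 for counting error. Its log2 change was -1.07 ± 0.21 (SE) and its limma adjusted p was 0.0716. Snord22, from Snhg1, whose RNA is known in Xenopus to be needed for making 18S ribosomal RNA, read 4110, 6717 and 3648 FPKM in WT and 2316, 1309 and 2392 FPKM in FNcKO. Its lowest WT library lay above its highest FNcKO library, with a log2 change of -1.26 ± 0.33 (SE) and a limma adjusted p of 0.135. The WT libraries spread widely, with an SD of 1655 FPKM.

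Snord34, one of the box C/D RNAs in the large-subunit gene Rpl13a, overlapped between genotypes. It read 4967, 4648 and 2583 FPKM in WT and 3986, 2016 and 3007 FPKM in FNcKO, with a log2 change of -0.43 ± 0.35 (SE) and a limma adjusted p of 0.579. Snord104, named here after its values were seen as an abundant row with little difference, read 1744, 1753 and 1468 FPKM in WT and 2071, 1441 and 1395 in FNcKO. Its log2 change was -0.04 ± 0.18 (SE). The 3 rows Snord116, Snord116l1 and Snord116l2, copies from the imprinted locus that is lost in Prader-Willi syndrome in humans, held identical values and cannot be told apart. They read 857, 749 and 900 FPKM in WT and 621, 534 and 629 FPKM in FNcKO, without overlap, with a log2 change of -0.49 ± 0.11 (SE) and a limma adjusted p of 0.0964.

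**Figure D3:**
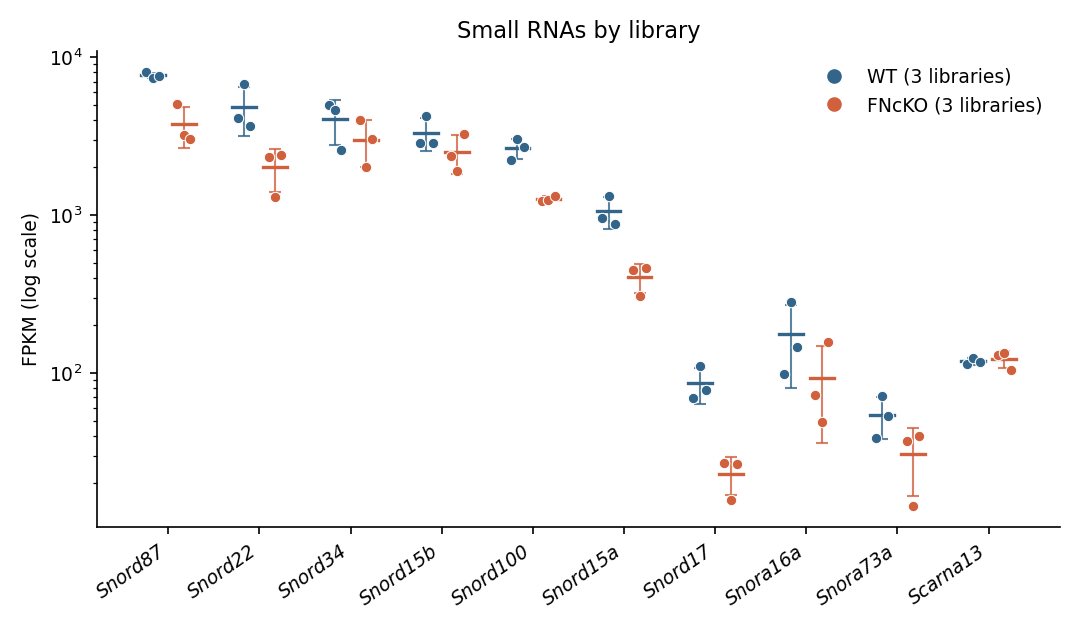
FPKM (log axis) of 10 small RNAs in each library. Points are libraries, horizontal lines are means and vertical bars are 1 SD (n = 3). Snord87, Snord22, Snord100, Snord15a and Snord17 have every FNcKO point below every WT point, while Snord34, Snord15b, Snora16a, Snora73a and Scarna13 overlap.

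Summed over the 39 convertible box C/D rows and set to the depth of WT replicate 1, fragments came to 1391, 1897 and 1285 in WT and 932, 653 and 1027 in FNcKO. The sums did not overlap. Without Snord15b, which gave the most fragments, they were 946, 1243 and 839 against 564, 357 and 518. These sums include each of the 3 identical Snord116 rows, weight the few abundant rows and describe the class in these libraries.

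Box H/ACA RNAs were less abundant, and limma called 0 of 27, with or without the mean-variance trend, beside 1.89% of all rows. Of the 27, 1 had an unadjusted p under 0.05, beside 18.1% of all rows. No member of the class had groups that stood apart, beside 16.3% of all rows with FNcKO below WT and 9.31% with FNcKO above. Snora16a, the most abundant of them and carried by Snhg12, read 97.8, 282 and 147 FPKM in WT and 72.6, 49.0 and 156 FPKM in FNcKO. The FNcKO libraries reached into the WT range, and the log2 change was -0.95 ± 0.54 (SE) with a limma adjusted p of 0.427. Snora21 had a log2 change of -0.78 ± 0.69 (SE), Snora74a of -0.50 ± 0.30, Snora7a of -0.81 ± 0.57 and Snora65 of 1.33 ± 1.77. Leaving out FNcKO replicate 2 or 3 moved Snora21 to -0.15 or -1.56, Snora7a to -0.31 or -1.32 and Snora74a to -0.26 or -0.76. For Snora65 the sign rested on WT replicate 2, which was at 0, and without that library the value was -0.81. The row with the unadjusted p under 0.05 was Snora23, from the nuclear import gene Ipo7, named after its values were seen. It went the other way, at 5.57, 9.33 and 6.70 FPKM in WT and 12.4, 8.36 and 13.4 FPKM in FNcKO, from 15 fragments in all, with a limma adjusted p of 0.253.

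The fragments of the 27 box H/ACA rows at the depth of WT replicate 1 came to 117, 179 and 142 in WT and 105, 55.6 and 134 in FNcKO. The low FNcKO library was replicate 2, and the others lay within or beside the WT range. At this depth a change of the class could not be separated from the spread between libraries.

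The fragments of the Scarna rows came largely from Scarna13, which the annotation places in an intron of Snhg10. Scarna13 read 113, 125 and 117 FPKM in WT and 130, 133 and 105 FPKM in FNcKO. Its groups overlapped with little spread, its log2 change was 0.05 ± 0.11 (SE) and its limma adjusted p was 0.869. By fragments its ratio per depth was 1.04, with an exact 95% interval of 0.899 to 1.21 for counting error. The worth of 1 fragment in this row was read from a curve fitted over length, so its fragment numbers are approximate. Its sign turned when FNcKO replicate 1 or 2 was left out. Scarna17 and Scarna10 were each seen as 1 fragment in 1 library, which alone gave Scarna17 214 FPKM in WT replicate 3. Limma called 0 of the 6 Scarna rows, with or without the trend, and none had an unadjusted p under 0.05. Of all rows, 1.89% were called and 18.1% had an unadjusted p under 0.05.

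Among the 11 host transcripts, 2 passed the test, both lower in FNcKO, beside 1.89% of all rows called. In 4 hosts the groups stood apart with FNcKO below WT (36.4%), beside 16.3% of all rows. In mammals the start regions of several hosts are known for an unbroken run of C and T letters across the first transcribed base, as in other terminal oligopyrimidine transcripts. From 30 bases before to 50 bases from the annotated start, with that run in capitals where it has at least 4 letters, Snhg12 and Gas5 (of whose starts the one with a run is shown) read as follows in RefSeq on GRCm38.p6, beside Snhg1.
Snhg12: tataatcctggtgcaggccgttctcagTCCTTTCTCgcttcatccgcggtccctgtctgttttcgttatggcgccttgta
Gas5: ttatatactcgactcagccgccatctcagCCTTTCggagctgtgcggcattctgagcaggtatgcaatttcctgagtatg
Snhg1: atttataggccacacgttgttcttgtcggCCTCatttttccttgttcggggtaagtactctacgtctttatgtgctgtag
The Snhg12 region is chr4:132308648-132308727, the Gas5 region chr1:161035136-161035215 and the Snhg1 region chr19:8723457-8723536, all on the plus strand. A run of at least 6 such letters over the first base was found in 4 of the 11 start regions of the hosts with an entry and in 7.25% of all 32851 start regions in the table. Snhg6 had no entry.

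Snhg6 was the most abundant host. It read 127, 120 and 144 FPKM in WT and 45.5, 58.3 and 71.7 FPKM in FNcKO, and the lowest WT library was above the highest FNcKO library. Mean levels were 130 ± 12.6 and 58.5 ± 13.1 FPKM (SD, n = 3 each), 2.23-fold lower, with a log2 change of -1.16 ± 0.17 (SE) and a limma adjusted p of 0.0411. The call held without FNcKO replicate 3 and was lost without any other library, with adjusted p up to 0.153.

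Snhg12 was the member with the smallest p. It read 107, 104 and 117 FPKM in WT and 70.0, 70.8 and 70.7 FPKM in FNcKO, with the FNcKO libraries within 1 FPKM of each other. The means of 109 ± 7.15 and 70.5 ± 0.465 FPKM (SD, n = 3 each) set FNcKO at 0.645 of the WT level, with a log2 change of -0.62 ± 0.07 (SE) and a limma adjusted p of 0.0204. Leaving out any single library moved the adjusted p to between 0.0533 and 0.0904, while the log2 change stayed between -0.66 and -0.57.

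Gas5, named for its rise in growth-arrested cells, and Snhg18 also had groups apart without passing. Gas5 read 21.6, 21.5 and 21.9 FPKM in WT and 18.0, 15.5 and 15.0 FPKM in FNcKO, a log2 change of -0.41 ± 0.08 (SE) with a limma adjusted p of 0.0760. Snhg18 read 2.16, 2.90 and 2.95 FPKM in WT and 1.78, 1.44 and 1.0 FPKM in FNcKO, a log2 change of -0.61 ± 0.15 (SE) with a limma adjusted p of 0.127.

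The other hosts overlapped between genotypes. Snhg1 read 14.4, 10.3 and 16.8 FPKM in WT and 14.7, 16.9 and 10.1 FPKM in FNcKO, a log2 change of 0.00 ± 0.24 (SE). Snhg9 read 99.3, 82.4 and 113 FPKM in WT and 92.7, 93.7 and 31.8 FPKM in FNcKO, so its lower mean came from FNcKO replicate 3. Snhg8, Snhg3, Snhg5, Snhg14 and Snhg20 had log2 changes from -0.18 to 0.47, with limma adjusted p from 0.497 to 0.832. Around the minimum of 1 FPKM, the rows just inside were Snhg14 at a mean of 1.57 FPKM, Snhg18 at 2.04 and Scarna3a at 2.28, and those just outside were Snhg10 at 0.916, Snhg15 at 0.683 and Snhg7 at 0.635.

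**Figure D4:**
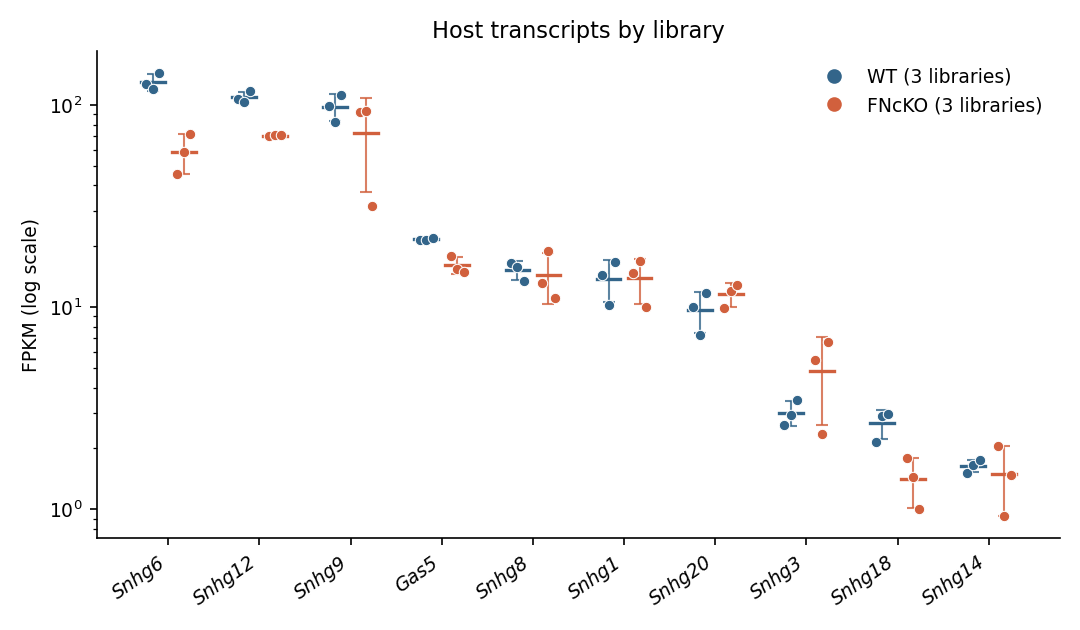
FPKM (log axis) of 10 host transcripts in each library. Points are libraries, horizontal lines are means and vertical bars are 1 SD (n = 3). Snhg6, Snhg12, Gas5 and Snhg18 have every FNcKO point below every WT point, and Snhg9 has 1 FNcKO library far below the others.

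Each host was then set beside the small RNAs inside its position. In 7 loci both were above the minimum, and the value compared was log2(summed FPKM of the small RNAs + 1) minus log2(FPKM of the host + 1) in each library. For Snhg6 and its Snord87 the log2 changes were -1.16 and -1.07. Their difference was 5.96, 5.93 and 5.72 in WT and 6.75, 5.76 and 5.38 in FNcKO, which overlapped, and the means of 5.87 ± 0.14 and 5.97 ± 0.71 (SD, n = 3 each) were 0.10 apart. That gap became -0.30 without FNcKO replicate 1 and 0.39 without FNcKO replicate 3, and among the FNcKO libraries the highest Snord87 went with the lowest Snhg6. In Snhg1, Snord22 had the log2 change of -1.26 given above while Snhg1 stood at 0.00, and their difference was 8.06, 9.22 and 7.68 in WT and 7.21, 6.19 and 7.76 in FNcKO, where FNcKO replicate 3 reached into the WT range.

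Snhg3 was the locus in which the differences did not overlap. Its row read 2.62, 2.93 and 3.47 FPKM in WT and 5.45, 2.36 and 6.71 FPKM in FNcKO. Its Snora73a and Snora73b, known as U17 and needed for processing 18S ribosomal RNA, summed to 61.7, 144 and 81.1 FPKM in WT and 74.4, 28.9 and 70.9 FPKM in FNcKO. The small RNAs minus the host gave 4.11, 5.21 and 4.2 in WT and 3.55, 3.15 and 3.22 in FNcKO, 1.20 lower in the mean. Snora73a and Snora73b are paralogous copies, and how shared fragments were split between them is not stated, so their separate values are uncertain.

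The other loci rested on few fragments or, in Snhg12, largely on a row of 56 bases that could not be converted. Snhg12 holds Snora16a (80 fragments), Snora44, Snora61 and Snord99, and its difference was 3.09, 1.59 and 3.42 in WT and 2.89, -0.52 and 1.5 in FNcKO. Snord99, the short row, read 582, 0 and 1050 FPKM in WT and 432, 0 and 0 in FNcKO. The summed small RNAs were 914, 314 and 1264 FPKM in WT and 526, 49.0 and 202 in FNcKO. Gas5 holds 1 row, Snord47, with 10 fragments in all, and the row was at 0 in FNcKO replicate 1, so the mean difference of -3.04 came mostly from that library. Snhg9 with Snora78 had 11 fragments, and Snhg8 with Snora24 fewer than 10. Of the 7 loci, 6 had a lower mean difference in FNcKO, and 1 of the 6 did so without overlap. Snhg10, under the minimum and so not tested, read 1.89, 1.05 and 1.13 FPKM in WT and 0.839, 0.283 and 0.302 FPKM in FNcKO, without overlap, while its Scarna13 overlapped. Snhg18 holds a row for Snord123 that was not a member, and the rows of Snhg5, Snhg14 and Snhg20 span no row for a small RNA. The annotation places the 3 Snord116 rows in introns of a longer Snhg14 than the table's row, so they were not set beside it.

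Most members lie outside the Snhg loci. By position, 22 of the 77 small RNA members lie inside rows of ribosomal protein genes, 15 inside Snhg or Gas5 rows, 38 inside other rows and 2 inside none. In the annotation 33 lie within an intron of a gene on their strand, 38 overlap an exon of some transcript of such a gene and 6 lie in none. The 33 include Snord116, which had no strand in the annotation and was placed by position alone. For 29 members with at least 10 fragments the row that holds them was also tested. In 21 of the 29 the log2 change of the small RNA lay below that of its host. The medians were -0.85 for the small RNAs and -0.14 for their 23 hosts. Some of the 29 share a host, so they are not separate comparisons. The median of -0.66 for other short rows was taken without a minimum of 10 fragments, so the sets are unlike. The 16 ribosomal protein rows that hold members had log2 changes from -0.22 to -0.01, none past the limma test and 1 with an unadjusted p under 0.05. All 16 lay below 0 as deposited, 12 with median-ratio scaling and 0 with the same FPKM total. This was not particular to rows that hold small RNAs. As deposited, all 79 rows named Rpl or Rps plus digits lay below 0, with a median of -0.16 beside -0.12 for the 16. In the same values, limma called 2 of the 79, both lower, and 27 had an unadjusted p under 0.05. Groups stood apart with FNcKO below WT in 42 of the 79 (53.2%) and 5 of the 16 (31.2%), beside 16.3% of all rows.

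The hosts of the called small RNAs showed this gap library by library. Rps12 read 468, 486 and 545 FPKM in WT and 461, 466 and 420 FPKM in FNcKO, a log2 change of -0.15 ± 0.09 (SE). Its Snord100 minus the host on the log2 scale was 2.26, 2.64 and 2.30 in WT and 1.41, 1.41 and 1.65 in FNcKO, without overlap. Snx5 read 10.9, 11.2 and 12.8 FPKM in WT and 11.1, 11.5 and 11 FPKM in FNcKO, a log2 change of -0.05 ± 0.07 (SE). Its Snord17 minus the host was 2.56, 3.20 and 2.51 in WT and 1.20, 0.43 and 1.20 in FNcKO, again without overlap. Rps3 read 194, 211 and 214 FPKM in WT and 184, 196 and 173 FPKM in FNcKO, a log2 change of -0.16 ± 0.08 (SE). Snord15a minus Rps3 stood apart between genotypes, 1.22 lower in the FNcKO mean, while Snord15b minus Rps3 overlapped, 0.25 lower. These pairs follow from the small RNAs that were called, so the gaps are a description. A small RNA row and its host row also overlap in position, and whether strand was used in counting is not stated.

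**Figure D5:**
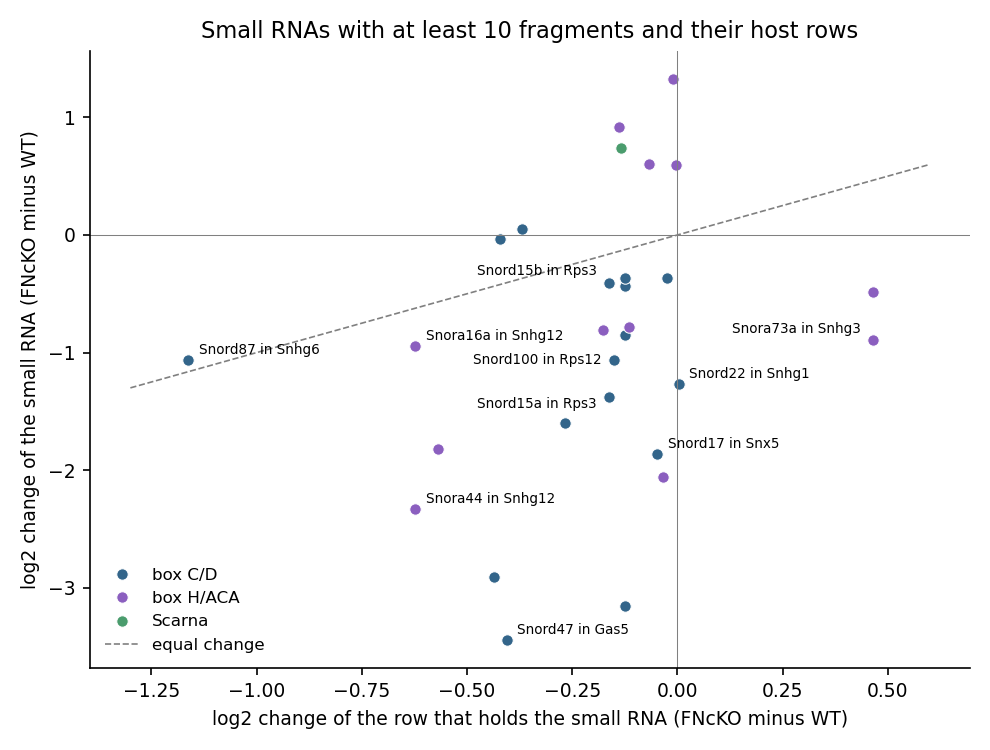
Log2 change of each small RNA (vertical axis) against the log2 change of the row that holds it (horizontal axis), both FNcKO minus WT of FPKM + 1, for the 29 members with at least 10 fragments in a tested row. The dashed line marks equal change. Snord87 lies near the line, and 21 of the 29 points lie below it.

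Genes whose proteins bind, assemble or release these RNAs gave 34 tested of 43 symbols. Limma called 0 with or without the trend, and 4 (11.8%) had an unadjusted p under 0.05, all 4 lower, beside 18.1% of all rows. Their median log2 change was -0.12. Another 27 tested of 33 symbols belong to nonsense-mediated decay and ribosomal RNA synthesis, of which limma again called 0 either way and 2 (7.41%) had an unadjusted p under 0.05, both lower. With 1.89% of all rows called, these counts of 0 were near the background. Among box C/D core proteins (4 tested), Nop58 read 6.01, 5.62 and 5.74 FPKM in WT and 5.27, 7.19 and 7.12 FPKM in FNcKO, and Nhp2l1, the 15.5K protein that first binds the RNA, had a log2 change of 0.04 ± 0.18 (SE). Among box H/ACA core proteins (3 tested), the pseudouridine synthase gene Dkc1 read 3.15 and 3.33 FPKM in the WT libraries with a value, replicates 1 and 3, and 2.41, 2.58 and 2.44 FPKM in FNcKO. Its values stood apart, with a log2 change of -0.29 ± 0.07 (SE) and a limma adjusted p of 0.149, and Nhp2 had a log2 change of -0.12 ± 0.11 (SE).

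Of 9 assembly factors, Znhit6 had a log2 change of -0.30 ± 0.10 (SE) and Ruvbl2 of -0.25 ± 0.12. Of 18 genes of intron release and end trimming, subunits of the RNA exosome had the smallest p. Exosc9 read 4.66, 3.79 and 4.19 FPKM in WT and 2.91, 2.16 and 2.51 FPKM in FNcKO, a log2 change of -0.57 ± 0.11 (SE) with a limma adjusted p of 0.0682. Exosc6 had a log2 change of -0.34 ± 0.06 (SE) with a limma adjusted p of 0.0702. Of 14 genes of nonsense-mediated decay, the pathway that degrades several Snhg and Gas5 transcripts, Nbas and Magoh had log2 changes of 0.17 ± 0.08 and 0.16 ± 0.09 (SE). Of 13 genes of RNA polymerase I and ribosomal RNA synthesis, nucleolin (Ncl), itself the host of Snord82, read 106, 102 and 118 FPKM in WT and 84.3, 84.4 and 82.9 FPKM in FNcKO. Its groups stood apart, with a log2 change of -0.37 ± 0.07 (SE) and a limma adjusted p of 0.0775, and Polr1d had a log2 change of -0.44 ± 0.15 (SE).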

How the data were processed

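The authors deposited 1 table of FPKM values with a column for each of the 6 libraries. The kit, per the labels' protocols, keeps strand and is meant for pico inputs of total RNA. Tools named in the submitters' processing notes are TopHat2 2.1.0, Cuffdiff 2.2.1, cutadapt 1.12 and FastQC, and the builds named there are mm10 and GRCm38.p5. Annotation, scaling, multiply mapped fragments and strand use: not given in the sources used here. In WT replicate 2, 3578 rows lack a value, among them the members Snord16a and Snhg5, and 1 value of WT replicate 3 was unreadable. These entered no fit.

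Rows with a mean of at least 1 FPKM were fitted as log2(FPKM + 1) with limma 3.58.1 in R 4.3.3 (trended variance, genotype as the only term), adjusted over all 10149 rows, at a threshold of 0.05. Log2 changes are on that scale, which understates change in low rows and enlarges it in rows with a library at 0, and folds are ratios of mean FPKM. Scripts were tested on simulated data. Total fragments per library were not used here, and relative depth was read from the steps in short rows of 60 to 280 bases. For most lengths the worth of 1 fragment was chosen so that the values of that length fell near multiples of 0.5 fragments. Of 232 converted values under 30 fragments, 208 (89.7%) lay within 0.1 of a whole number. That share follows largely from this choice and is no check of the conversion. At the other lengths the worth of 1 fragment was read from a curve fitted over length. This was so for well-covered rows such as Snord15b, Snord22 and Scarna13, and for the Snord116 rows. Ratios per depth have exact binomial intervals.

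Members and lists were chosen with earlier results of these data known. Values were named for hosts that hold a small RNA or pass, the 4 most abundant hosts, small RNAs that pass, the 5, 5 and 3 most abundant box C/D, box H/ACA and Scarna rows, the 4 largest rises and falls with groups apart and no 0, the 3 rows on either side of the minimum, and per list up to 4 that pass or the 2 with the smallest p. Small RNAs were placed in hosts by position, and strand and introns came from GENCODE M21. Pseudocounts, filters, scalings, row sets, left-out libraries and a replicate block were tried as alternatives, and 3 more were chosen after seeing the data.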

Additional observations from a re-analysis of the deposited data

How the results depend on the processing

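All rows called and members called, 192 and 5 as reported, became 101 and 1 without a filter, 89 and 1 with the same FPKM total, and 366 and 10 when other rows under 300 bases were left out. Leaving out each library in turn gave 48 to 111 rows and 1 to 2 members. A replicate block by the numbers in the titles gave 14 rows and 0 members. Same-numbered libraries did not deviate together (correlations of -0.027, -0.055 and -0.046). Low correlations cannot show whether these libraries were prepared together, so whether the numbers pair them was left undecided. The median log2 change of box C/D rows was -0.67 with at least 10 fragments, an alternative chosen after seeing the data, and ranged from -1.47 to -0.96 with 1 library left out (-1.46 without FNcKO replicate 1). That of box H/ACA rows ranged from -0.83 to -0.12 with 1 library left out. That of hosts was -0.066 with a pseudocount of 10, -0.41 with a mean of at least 5 FPKM and 0.018 with the same FPKM total, and ranged from -0.30 to -0.12 with 1 library left out. Pseudocounts, scalings and left-out libraries, which alter a member's own values, gave 247 comparisons over the named members, of which 237 kept the direction. The 10 reversals were in members near 0 or, for Snora65, with a library at 0. Scarna13 was -0.0009 and -0.016 without FNcKO replicates 1 and 2. Snhg1 was -0.18 without WT replicate 2 and -0.050 and -0.14 without FNcKO replicates 1 and 2. Snhg14 was 0.036 with the same FPKM total and 0.065 without FNcKO replicate 2, Snhg8 was 0.14 with the same total and 0.057 without FNcKO replicate 3, and Snora65 was -0.81 without WT replicate 2. With 1 library left out these ran up to 0.16 for Scarna13, 0.20 for Snhg1 and 2.58 for Snora65, and down to -0.27 for Snhg14. The cause was not tested. Depth limits the 37 small RNAs with fewer than 10 fragments.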
